A study of Homo sapiens with 10 samples.

Results

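Histone genes are the protein-coding genes whose symbol starts with a histone name, under the older symbols used here (HIST1H to HIST4H, H1F, H2AF and H3F). There were 87 of them among 60603 annotated genes, of which 19975 were protein-coding. All measurements came from NB4 cells, an established acute promyelocytic leukemia line, sequenced as mRNA in 2 experiments. In the knockdown experiment the cells carried the lentiviral vector pLKO.1 puro, either empty (EV) or with the hairpin shA1 or shB2 against GSE1, a subunit of complexes that hold the histone demethylase LSD1, and were collected 48 h after transduction. In the inhibitor experiment cells without a vector received the LSD1 inhibitor MC2580 at 2 µM, or its solvent DMSO, for 24 h. Each of these 5 groups had 2 libraries, making 6 in the knockdown experiment and 4 in the inhibitor experiment. The level used here is the base mean, the authors' mean of size-factor-scaled read counts over all libraries of 1 experiment. In the knockdown experiment its label names shB2 alone, and it was taken to cover all 6 libraries. The base mean is a single value per gene and experiment, so it carries no replicate error and no value for a single group, and the depth of each library is unknown. No change between knockdown and control or between inhibitor and DMSO was therefore tested.

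The histones H2A, H2B, H3 and H4 form the core of the nucleosome, and linker histone H1 binds the DNA that enters and leaves it. Most copies are made in S phase from replication-dependent genes, which lie in clusters, have no introns and produce mRNAs that end in a stem-loop instead of a poly(A) tail. SLBP, the stem-loop binding protein, holds that structure during processing and translation. Replication-independent variants such as H3.3, H2A.Z and macroH2A are made throughout the cell cycle from ordinary polyadenylated mRNAs and replace the canonical histones at particular places in chromatin. The libraries were prepared with a kit that captures polyadenylated RNA, so the values describe that fraction and not all histone mRNA.

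By a list of symbols drawn up for this purpose, 70 members were classed as clustered genes and 17 as replication-independent. HIST1H1T, which lies in histone cluster 1, was classed as replication-independent. Of the clustered genes, 54 belong to histone cluster 1, 12 to cluster 2, 3 to cluster 3 and 1 to cluster 4. H1 had 10 genes, H2A 26, H2B 18, H3 18 and H4 15, and all H2B and H4 genes were of the clustered class. Reference transcripts of GENCODE release 44 on GRCh38 (hg38) were found for 85 members. HIST2H2AA3 and HIST2H2AA4, a pair of H2A genes of cluster 2, were not matched, and both were listed at 0 in both experiments.

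The stem-loop was found in most clustered genes and in few replication-independent ones. Its 6 forms are shown because the H4 stems differ from those of the other members except H2AFX. Each is 16 bases long, with a stem of 6 pairs in capitals and a loop of 4 bases in lower case, read 5′ to 3′ on the strand of the gene. The example of each form is followed by its position on GRCh38, which lies in the 3′ UTR of the single exon of the representative transcript.
HIST1H1C (linker histone H1.2), chr6:26055744-26055759, minus strand: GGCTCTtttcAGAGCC
HIST1H2BK (H2B), chr6:27146366-27146381, minus strand: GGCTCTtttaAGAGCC
HIST2H2AC (H2A), chr1:149887391-149887406, plus strand: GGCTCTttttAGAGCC
HIST1H4H (H4), chr6:26285131-26285146, minus strand: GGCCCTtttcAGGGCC
HIST1H4I (H4), chr6:27139654-27139669, plus strand: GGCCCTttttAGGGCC
H2AFX (the variant H2A.X), chr11:119094898-119094913, minus strand: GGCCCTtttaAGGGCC

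One of these forms was present in 63 of the 68 matched clustered genes. The form shown for HIST1H1C was the most frequent, with 39 members, 4 of H1, 11 of H2A, 12 of H2B and 12 of H3. The form shown for HIST1H2BK was found in 10 members, 2 of H1, 1 of H2A, 5 of H2B and 2 of H3. All 14 H4 genes with a stem-loop had a stem that starts GGCCCT, 10 with the HIST1H4H form and 4 with the HIST1H4I form. Outside H4 this stem occurred in H2AFX alone among the members. The stem-loop started 22 to 62 bases after the stop codon, with a median of 35, and the reference transcript ended a median of 5 bases beyond it. Among all 19702 protein-coding genes with a reference transcript, 161 held a 16-base sequence of this pattern, 65 of them members.

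Among the 17 replication-independent genes, H2AFX and HIST1H1T, the testis-specific linker histone H1t, held a stem-loop. H2AFX is known to produce both a stem-loop mRNA and a longer polyadenylated one, and the reference transcript ran 1024 bases past its stem-loop. The clustered genes without a fully paired stem-loop were HIST1H2AG, HIST1H2AK, HIST1H2BI, HIST1H3E and HIST1H4L, named here after their sequences were seen. Of these, HIST1H2AG and HIST1H2AK held one after the stop codon when 1 mismatch in the stem was allowed. All 68 matched clustered genes had 1 exon in the representative transcript, as did 10 of the 17 replication-independent ones, and the median transcript length was 486.5 bases against 1212.

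The histone genes together held 0.259% of all base means in the knockdown experiment and 0.286% in the inhibitor experiment, and almost all of it came from a few replication-independent genes. The 17 replication-independent genes summed to 104010 and 116161, which was 98.9% and 98.6% of the histone total. The 70 clustered genes summed to 1116 and 1600. Per kilobase of the longest reference transcript, a scale that takes out gene length, the replication-independent share was 96.2% and 95.1%. The 5 highest members, H3F3B, H2AFZ, H2AFY, H2AFV and H2AFX, held 93.6% of the histone base mean in the knockdown experiment and 92.8% in the inhibitor experiment.

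A base mean of at least 10 was reached by 32 members in the knockdown experiment and by those 32 and 17 more in the inhibitor experiment. Among protein-coding genes, 63.1% and 63.0% reached it. At a base mean of at least 100 the count was 11 members in each experiment, 9 replication-independent genes and the clustered HIST1H2BK and HIST1H1C. Listed at 0 were 16 members in the knockdown experiment and 17 in the inhibitor experiment, 14 of them in both. Of all protein-coding genes, 13.2% and 14.4% were at 0. Across the 10 replication-independent genes of base mean at least 10, the median was at the 89.8 percentile of those protein-coding genes that were not at 0 in the knockdown experiment, and at the 93.3 percentile in the inhibitor experiment. The 22 and 39 clustered genes above this minimum had medians at the 31.9 and 31.2 percentiles.

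By histone type, H2A held 64.4% of the histone base mean in the knockdown experiment and 66.1% in the inhibitor experiment. H3 followed with 30.4% and 28.1%, and H1 with 4.60% and 5.10%. H2B, which has no replication-independent member under this rule, held 0.549% and 0.614%, and H4 held 0.0674% and 0.128%. Per kilobase, the shares of H2B were 1.92% and 2.15% and those of H4 0.302% and 0.546%. The core histones are present in equal number in a nucleosome, and these shares of mRNA were far from equal in the poly(A)-selected libraries.

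H3F3B (ENSG00000132475.10, chr17:75776434-75785893) and H3F3A (ENSG00000163041.11, chr1:226061851-226072019) encode the same protein, the replacement histone H3.3. H3F3B had a base mean of 31092 in the knockdown experiment and 32102 in the inhibitor experiment. H3F3A had 695 and 742. Per kilobase of the longest transcript, the level of H3F3B was 29.9-fold that of H3F3A in the knockdown experiment and 28.9-fold in the inhibitor experiment. With the length of the representative transcript the ratios were 17.7 and 17.1, and with the mean transcript length 39.7 and 38.4.

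Most of the H3F3A reference transcript is sequence shared with other genes. Of the 50-base words in the H3F3A transcript, 72.7% also occurred in transcripts of other annotated genes, 14 of them, against 8.28% in H3F3B. The 6 H3F3A pseudogene rows, 5 of them above 0, summed to 24.8 and 27.0, well under the H3F3A value itself. These 6 rows do not cover all 14 genes, and the gene that shared the most words is not among them. The sum therefore does not show how many H3F3A reads were counted elsewhere. How the authors' counting divided shared reads was not tested, so the ratio of the H3.3 genes is uncertain. H3F3C, a gene for the H3 variant H3.5, had 21.5 and 15.3.

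H2AFZ (ENSG00000164032.12, chr4:99948086-99950355) encodes H2A.Z.1, a variant found at promoters, and had base means of 29241 and 33074. H2AFV (ENSG00000105968.18, chr7:44826791-44848087), which encodes the related H2A.Z.2, had 13156 and 12309. Per kilobase of the longest transcript, H2AFZ was 4.50-fold above H2AFV in the knockdown experiment and 5.44-fold in the inhibitor experiment. With representative transcripts the ratios were 7.77 and 9.39, and with mean transcript lengths 2.67 and 3.23. Together the H2A.Z genes made up 62.6% and 58.3% of the H2A base mean.

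H2AFY (ENSG00000113648.16, chr5:135334381-135399914) encodes macroH2A1, which carries a large extra domain and is known from silent chromatin. Its base means were 15586 and 16974, while H2AFY2, the gene of macroH2A2, had 0.20 and 0.23. H2AFX (ENSG00000188486.3, chr11:119093874-119095465), whose protein is phosphorylated around DNA breaks, had 9290 and 14826. H2AFJ, a variant close in sequence to canonical H2A, had 213 and 278. The short testis variants were at or near 0, with H2AFB2 and H2AFB3 listed at 0 in both experiments and H2AFB1 at 0 and 0.40.

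Per kilobase of the longest transcript, the order in the knockdown experiment was H2AFZ with 15554, H3F3B with 11156, H2AFX with 5835, H2AFV with 3459, H1FX with 2228 and H2AFY with 1419. Of these 6 genes, H2AFY had the largest gap between its longest transcript, 10982 bases, and its representative one, 1917 bases. With representative transcripts its level became 8130, above H2AFX and H2AFV, and that of H2AFZ became 33766. With mean transcript lengths H3F3B, at 29260, stood above H2AFZ, at 26002. No spread between libraries can be set against this order.

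Of the linker histones, H1FX (H1.10, ENSG00000184897.6, chr3:129314771-129316286) had base means of 3377 and 4879. H1F0 (H1.0, ENSG00000189060.5, chr22:37805229-37807432), known to accumulate in cells that stop dividing, had 1336 and 958. The clustered H1 genes were lower, with HIST1H1C at 105 and 115, HIST1H1E at 7.77 and 28.5, and HIST1H1B at 5.46 and 22.0. The germline genes H1FOO, H1FNT and HIST1H1T had 0.51, 0 and 0 in the knockdown experiment and 0, 0.24 and 0 in the inhibitor experiment.

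Among the clustered types H2B had the highest median base mean, 14.5 and 23.6. HIST1H2BK had 179 and 197, HIST1H2BC 77.5 and 71.2, HIST1H2BD 73.1 and 84.3, HIST1H2BH 53.4 and 88.2, and HIST1H2BJ 45.5 and 45.1. Of the clustered H2A genes, HIST1H2AC had 80.0 and 78.1, and HIST1H2AG had 65.9 and 72.4. The highest clustered H3 genes were HIST1H3H with 44.5 and 58.2 and HIST2H3PS2 with 21.1 and 39.9. The H4 genes had the lowest median base mean of any clustered type, 1.11 and 5.64. They were led in the knockdown experiment by HIST1H4I with 17.2 and 24.1, HIST1H4H with 13.6 and 38.1, HIST4H4 with 10.5 and 12.7, HIST1H4E with 10.5 and 26.3 and HIST1H4C with 8.04 and 22.4. Histone cluster 1 summed to 1000.4 and 1424, cluster 2 to 105 and 163, cluster 4 to 10.5 and 12.7, and the 3 genes of cluster 3 were listed at 0.

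Some clustered genes are known to make polyadenylated transcripts as well as the stem-loop form, and 5 were listed as such (HIST1H1C, HIST1H2BD, HIST1H2BK, HIST2H2BE and HIST1H2AC). Their base means ran from 44.1 to 179 in the knockdown experiment and from 53.1 to 197 in the inhibitor experiment. Over all 70 clustered genes the median was 5.45 and 12.4. Divided by the annotation, 12 clustered genes had a reference transcript that holds the stem-loop and runs at least 100 bases past it. Their median was 9.35 and 16.4, against 5.66 and 14.7 in the 51 genes with a stem-loop but no such transcript. HIST1H2BK, the highest clustered gene, had no such transcript in release 44. Longer transcripts that lack the stem-loop were not counted, and the 51 include HIST1H2BC, HIST1H2BD, HIST1H2BJ, HIST1H2BN and HIST2H2BF, which have one. This contrast was smaller than that of the list, but it does not compare genes with and without longer transcripts.

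Genes of a type often encode one protein. The 15 H4 genes encode 2 distinct proteins in the reference, and 14 of them the same 103-residue one, which summed to 70.9 and 150 over those genes. The 18 H3 genes encode 6 proteins. H3.3 from H3F3A and H3F3B held 99.6% and 99.3% of the H3 base mean. The H3.1 protein shared by 10 genes, HIST1H3A to HIST1H3J, held 0.282% and 0.498%. The 18 H2B genes encode 14 proteins, the 24 matched H2A genes 18 and the 10 H1 genes 10.

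Near-identical copies limit what a value of 0 means. Of the 85 matched genes, 49 shared at least one 50-base word with another annotated gene. In 11 members at least 90% of words were shared, and 7 of those were listed at 0 in each experiment, against 7 and 8 of the other 74. Among the 11 are the identical or nearly identical pairs HIST2H4A and HIST2H4B, HIST2H3A and HIST2H3C, HIST1H4J and HIST1H4K, and H2AFB2 and H2AFB3, all below a base mean of 1. For HIST1H2BC, at 100%, the sharing comes mainly from ENSG00000291336, a gene of release 44. Whether the authors' counting included that gene is not known, so the HIST1H2BC value is uncertain.

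The 10 clustered genes with the highest base means were the same in the 2 experiments, where they held 68.7% and 53.9% of the clustered sum, but most clustered genes lay higher in the inhibitor experiment. The tables were normalised separately, and the experiments differ in vector, treatment, time and plating density, which cannot be told apart. The ratio of the inhibitor to the knockdown base mean was taken for genes with a mean base mean of at least 5 that were above 0 in both. For all 17882 such genes its median was 1.00, and 14.1% had a ratio of at least 1.5. For the 2802 protein-coding genes of mean base mean 5 to 100, the range of most clustered genes, the median was 0.99 and 20.9% reached 1.5. Among the 44 clustered histone genes the median was 1.85, from 0.92 to 6.87, and 29 of them, 65.9%, reached 1.5. HIST1H1D, HIST1H2AH, HIST1H2AD, HIST2H2AB, HIST1H3I, HIST1H3J, HIST2H3D and HIST1H4D passed the minimum only through the inhibitor value, being below 5 in the knockdown experiment. All of these reached 1.5, and no clustered gene passed only through its knockdown value. The median and the share past 1.5 therefore include genes let in by their higher inhibitor values. The summed base mean of the 44 genes was 1095 in the knockdown and 1551 in the inhibitor experiment.

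The difference was unequal within the clustered class. The 5 genes listed for polyadenylated transcripts had ratios from 0.98 to 1.21, with a median of 1.10, and none reached 1.5. The other 39 had a median of 1.89, and all 29 genes past 1.5 were among them. These 39 include every gene named above that passed the minimum only through the inhibitor value, so the minimum raises their side of the contrast. The list was drawn up with earlier results known, and ratios also differed by level. Of the 10 clustered genes with the highest base means, the 5 that were not on the list, a set chosen after the values were seen, had a median of 1.10, from 0.92 to 1.65, and 1 of them, HIST1H2BH, reached 1.5. By the annotation, the 7 genes with a transcript holding the stem-loop and running past it had a median of 1.31, with 3 past 1.5. The 36 without such a transcript had a median of 1.88, with 26 past 1.5, and they too include every gene let in only by its inhibitor value. These 36 include HIST1H2BC, HIST1H2BD, HIST1H2BJ, HIST1H2BN and HIST2H2BF, whose longer transcripts lack the stem-loop and whose ratios ran from 0.92 to 1.37. Membership of the list and level cannot be told apart here. The median ratio was 2.78 for the 4 clustered H1 genes, 2.20 for 10 H2A, 1.29 for 14 H2B, 2.00 for 10 H3 and 2.04 for 6 H4 genes. Except for H2B, these medians include genes let in only by their inhibitor values. The highest ratios were those of HIST1H2AD, with 2.94 and 20.2, and HIST1H3I, with 2.97 and 16.2, both named after their values were seen. Both passed the minimum for a ratio only through the inhibitor value. Such low values rest on few reads, and their error could not be computed. Of the sequence words of HIST1H2AD, 83.9% also occurred in other annotated genes. How the authors' counting divided shared reads was not tested, so the values and ratio of HIST1H2AD are uncertain for this reason too.

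The 10 replication-independent genes had a median ratio of 1.08, and 1 of them reached 1.5. This was H2AFX at 1.60, the highest ratio among the members of base mean at least 100 in both experiments. H1FX followed at 1.44, and H1F0, at 0.72, had the lowest ratio of these members. In the same libraries the proliferation markers MKI67 and TOP2A were lower in the inhibitor experiment, 35204 against 20531 and 18391 against 9690, and PCNA, the replication clamp, had 14629 and 14792. Their part in the histone values was not tested.

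The promoters of the clustered genes often held letters that the rule did not use, although CCAAT was about as frequent in the replication-independent ones. In the RefSeq windows of 300 bases, from 250 before the start to 50 after it, TATAAA stood on either strand in 42 of 63 matched clustered genes (66.7%), in 4 of 15 replication-independent ones and in 11.95% of all 27305 promoters. CCAAT, the letters bound by the factor NF-Y, stood in 53 of 63 (84.1%), in 12 of 15 and in 35.7% of all promoters. Both were present in 36 of 63 clustered windows (57.1%), 3 of 15 and 4.84% of all promoters. These are matches of letters and not measured binding. Some clustered genes, such as HIST1H2AG and HIST1H2BJ, start close together on opposite strands, so a match can count in both windows.

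The 12 listed genes that make and handle histone mRNA had base means from 342 to 19002 in the knockdown experiment and from 208 to 20663 in the inhibitor experiment. SLBP had base means of 7582 and 7678. NPAT, which activates histone transcription in S phase, had 1006 and 823, and CASP8AP2 (FLASH), a processing factor, had 2277 and 1787. LSM10 and LSM11, parts of the U7 particle that guides the cut after the stem-loop, had 790 and 539 in the knockdown and 1125 and 501 in the inhibitor experiment. Of these supply genes, SYMPK, the scaffold of the cleavage complex, was the highest with 19002 and 20663, and 3 had a ratio above 1, with a median of 0.84.

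The 20 histone chaperone and deposition genes had a median base mean of 5811 and 5462. SSRP1, a subunit of the FACT complex, had 31467 and 31570, and NASP, which keeps soluble H3 and H4, had 19995 and 20591. HIRA, which deposits H3.3, had 6434 and 5574, DAXX had 2118 and 2173, and ATRX, its partner, 3296 and 1850. ANP32E, a chaperone of H2A.Z, had 9841 and 8218, and CENPA, the centromeric H3, 1329 and 1183. The median ratio of the chaperones was 0.96, and 8 of 20 were above 1.

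The cell line was checked against promyelocyte markers, of which 7 of 8 had base means of 723 or more in both experiments, led by MPO at 506765 and 824818. ELANE, the neutrophil elastase gene, was the exception at 1.10 and 3.87. Of the markers of other cells, HBB had 11.7 and 0, CD3E 1.55 and 2.98, and COL1A1 14.4 and 12.2. The highest were PECAM1 with 2048 and 689 and EPCAM with 432 and 403.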

How the data were processed

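NB4 mRNA libraries were made from total RNA with the TruSeq RNA v2 kit. The authors mapped reads to hg38 with STAR and counted them with RSEM, and per the labels bcl2fastq 2, FastQC 0.11.5 and STAR 2.7 were used. The annotation release is not given in the sources used here. The deposited tables hold 1 base mean per gene, a signal of size-factor-scaled counts made by the authors with DESeq2 over the libraries of an experiment, and columns of the authors' own comparisons (log2 fold changes, standard errors, test statistics and p-values), which were not used. Because no value per library was among them, the planned edgeR test was not run, and the silencing of GSE1 could not be checked.

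Genes were matched to GENCODE release 44 by identifier. Shared sequence was counted in words of 50 bases, whatever the read length, on both strands. Stem-loops were searched in reference transcripts, allowing the pattern described in the text. Identical proteins were found by translating the reference transcripts. Values were computed with pandas 2.3.3 and numpy 2.4.6, and the summing script was checked on simulated data. The genes to be named were members that reached a base mean of 100 in 1 experiment or both, the 5 highest of each histone type, all replication-independent members the members with the highest and lowest ratio between the experiments, and the listed supply and chaperone genes. The members and lists were chosen with earlier results of these data known. Some markers of other cells are not reported here.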

Additional observations from a re-analysis of the deposited data

How the results depend on the processing

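No paired analysis was possible because the base mean is 1 pooled value per experiment and no result comes from a test. For the same reason the alternatives with edgeR, DESeq2, no filter, a replicate block or a library left out were not run. With no replicate error, every shift counts as a move. The number of histone genes detected in the knockdown experiment was 71 above 0, 62 at 1 and 11 at 100, against 32 at 10, and in the inhibitor experiment 70, 65 and 11 against 49. The share of base means in histone genes was 0.264% and 0.291% of protein-coding genes alone. Counting H2AFX and H2AFJ with the clustered genes gave a replication-independent share of 89.9% and 85.8%. Per kilobase, the share of replication-independent genes was 96.2% and 95.1%, that of H1 7.09% and 7.80%, H2A 63.1% and 65.0%, H2B 1.92% and 2.15%, H3 27.6% and 24.5%, H4 0.302% and 0.546%, H2A.Z.1 within H2A 58.3% and 54.4% (43.2% and 42.5% as deposited), and H3.3 within H3 98.6% and 97.5%. The median ratio of the experiments was 1.82 for clustered and 1.06 for replication-independent genes with base means scaled to the same sum, and 1.91 and 1.11 scaled to the median ratio. The number of members with a stem-loop was 39 for the most frequent form, 65 for any paired form and 67 when 1 mismatch in the stem was allowed, the last chosen after seeing the data. The base mean is taken over all libraries of an experiment, so a change in 1 group is diluted in it, and levels under about 10 rest on few reads.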
